A study of Mus musculus with 12 samples.

Results

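Mucus is built from mucins, long glycoproteins whose serine- and threonine-rich repeats carry dense O-linked sugars. The 10 genes described here are the gel-forming secreted mucins Muc5b and Muc5ac, the membrane-bound mucins Muc16, Muc1, Muc4 and Muc20, the trefoil peptide Tff2, and 3 genes of the mucous secretory cell, Spdef, Agr2 and Creb3l1. They were taken by symbol from the deposited count table. All 10 were found among its 55367 genes, and all 10 were among the 17076 genes with enough counts to test. In the tongue, mucus is made by minor salivary glands. Gel-forming mucins are packed into granules and released to form the gel, membrane mucins stay on the apical surface, and trefoil peptides are secreted together with mucins. Spdef is an ETS transcription factor of goblet and mucous cells, Agr2 is a protein disulfide isomerase needed for mucin folding, and Creb3l1 is a membrane-held transcription factor of the secretory pathway.

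The series holds 12 poly(A) RNA sequencing libraries of mouse tongue organoids, epithelial cultures grown in 3 dimensions, from the foliate papilla (FoP) and the circumvallate papilla (CVP). The groups are FoP organoids labelled Foxe1 knock-out (clones 2.5 and 2.4, each in duplicate), FoP wild type (1 label in duplicate), CVP organoids labelled Foxe1 knock-out (clones 2.10 and 2.9, each in duplicate) and CVP wild type (1 label in duplicate). Each line thus has 4 knock-out and 2 wild type libraries. Foxe1 is a forkhead transcription factor, and the comparisons ask how its loss changes these organoids. How Foxe1 was altered and which mouse strain was used are not in the labels, and no wild type culture is labelled as a clone, so genotype and derivation of a clone cannot be told apart. Nothing in the labels says that duplicates came from separate cultures. The p-values therefore measure the spread between libraries, part of which may be technical.

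Total counts per library lay between 59260916 and 73568645. Levels are given as CPM, the count of a gene scaled to a common library size. The Foxe1 transcript stood at 11.2 and 11.5 CPM in clone 2.5, 22.4 and 20.0 CPM in clone 2.4 and 16.3 and 16.0 CPM in FoP wild type. It stood at 7.33 and 8.46 CPM in clone 2.10, 23.7 and 22.7 CPM in clone 2.9 and 15.4 and 15.9 CPM in CVP wild type. One clone of each line was above and the other below its wild type, so transcript level does not check the knock-out label, and "knock-out" below means the libraries labelled so. The 8 markers of lingual epithelium (Epcam, Cdh1, Trp63 and 5 keratins) were detected in every group, with a summed 10423 to 13059 CPM in FoP knock-out, 10554 to 10577 CPM in FoP wild type, 11786 to 14452 CPM in CVP knock-out and 8819 to 9218 CPM in CVP wild type.

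Most of the 10 mucous genes were lower in the knock-out libraries of both lines, more so in the CVP line. In FoP knock-out 5 of the 10 fell and 0 rose (edgeR quasi-likelihood test, adjusted p under 0.05; 6 of the 10 had an unadjusted p under 0.05, and 6 were called by the DESeq2 Wald test), while 15.3% of all tested genes fell, 13.5% rose and 28.8% did either. In CVP knock-out 9 of the 10 fell and 0 rose (9 at an unadjusted p under 0.05, and 9 called by DESeq2), while 22.9% of all tested genes fell, 23.5% rose and 46.4% did either. The 5 include Muc5b, and the 9 include Muc5b, Muc4, Muc20 and Tff2, which had 0 knock-out libraries of that line at 10 counts or more. Muc5ac, also among the 5, had 1 FoP knock-out library at 10 counts or more. In those lines these genes passed the filter on low counts only through other groups, so their lower value adds no support to the counts. Of the rest of the 5, Spdef and Agr2 had 4 FoP knock-out libraries at 10 counts or more. Tff2 had 2, at 15 and 10 counts. The median log2 fold change of the 10 was -1.40 in FoP and -3.14 in CVP, beside 0.01 and 0.03 over all tested genes. All 4 knock-out libraries lay below both wild type libraries for 7 of the 10 in FoP, against 25.8% of all tested genes, and for 9 of the 10 in CVP, against 30%. All 4 lay above both for 0 of the 10 in either line, against 23.9% of all tested genes in FoP and 31.7% in CVP. The medians and the counts without overlap include the genes that passed the filter only through other groups, which add no support here either. These are Muc5b and Muc5ac in FoP, and Muc5b, Muc4, Muc20 and Tff2 in CVP. Since the libraries are bulk samples, fewer mucous cells and less mucin RNA per cell cannot be told apart. In FoP the count was 2 when duplicates were summed per culture and 3 when fitted by limma voom (culture as block) or without FoP wild type duplicate 2.

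**Figure D1:**
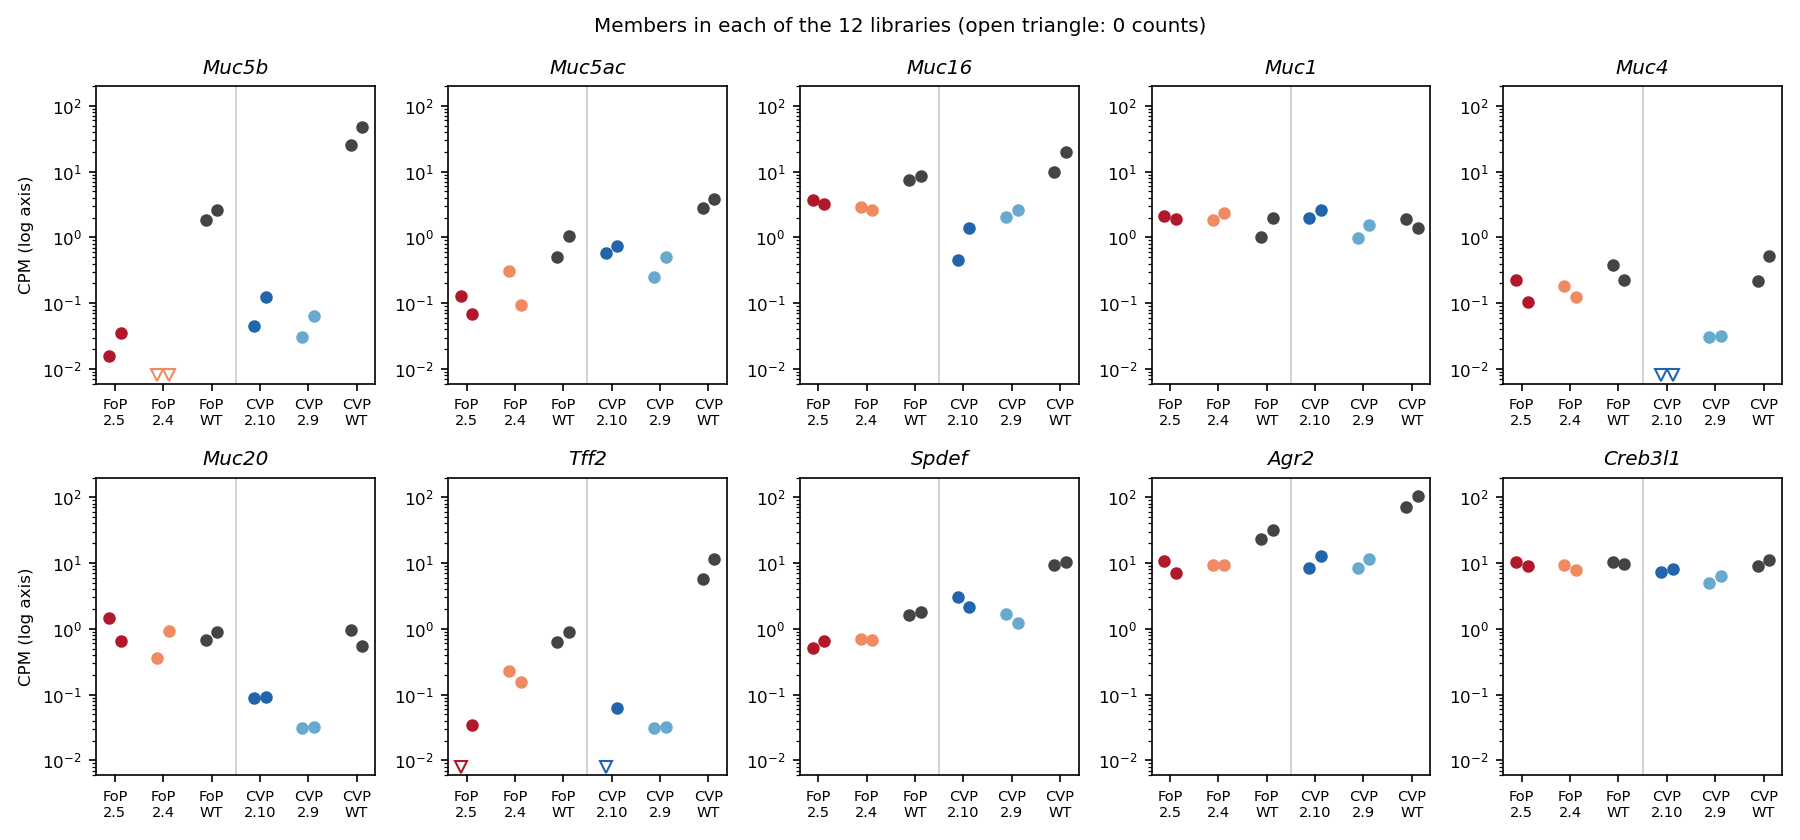
CPM (log axis) of the 10 genes in the 12 libraries, 1 point per library, with the knock-out clones left of the wild type of their line and open triangles for 0 counts. Muc5b lies furthest below wild type in both lines. The 4 CVP knock-out points of Muc20 lie at 0.0310 to 0.0928 CPM, below both wild types, whereas Muc1 overlaps between knock-out and wild type in both lines.

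Of the gel-forming mucins, Muc5b was nearly lost from both lines and Muc5ac was reduced. Muc5b is a gel-forming mucin of mucous cells. It lies on chromosome 7 (141839070 to 141873084, plus strand, GRCm38), next to Muc5ac (141788972 to 141819231), which in turn lies next to Muc2. Muc5b had 1 and 2 counts in clone 2.5 and 0 and 0 in clone 2.4, against 127 and 159 counts in FoP wild type (log2 fold change -7.31 ± 0.55 (SE), adjusted p = 6.56e-06, edgeR). It had 3 and 8 counts in clone 2.10 and 2 and 4 in clone 2.9, against 1718 and 3428 counts in CVP wild type (-9.07 ± 0.40, adjusted p = 1.34e-07). The knock-out and wild type libraries were far apart in both lines and every clone showed the loss. A fitted fold change this close to 0 counts depends on the prior count of the fit, so ratios of summed counts are given by clone. Clone 2.4, with 0 counts, was at least 48.0-fold below FoP wild type against a floor of 3 counts per library. The ratio of knock-out to wild type was 0.0114 in clone 2.5 (95% counting interval 0.00233 to 0.0336), 0.00229 in clone 2.10 (0.00114 to 0.00410) and 0.00128 in clone 2.9 (0.000470 to 0.00279). These intervals cover counting error only and are too narrow if both mates of a read pair were counted. The FoP call for Muc5b was lost when fitted by limma voom, culture as block (adjusted p = 0.109).

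Muc5ac, the gel-forming mucin best known from the stomach surface and the airway, kept a measurable level. It stood at 0.127 and 0.0694 CPM in clone 2.5 and 0.304 and 0.0929 CPM in clone 2.4, against 0.509 and 1.04 CPM in FoP wild type (log2 fold change -2.35 ± 0.53, adjusted p = 0.00507, edgeR). It stood at 0.587 and 0.742 CPM in clone 2.10 and 0.248 and 0.507 CPM in clone 2.9, against 2.84 and 3.89 CPM in CVP wild type (-2.69 ± 0.47, adjusted p = 0.000465). No knock-out library reached its wild type in either line, and Muc5ac fell less far than its neighbour Muc5b in each. The FoP call was lost without FoP wild type duplicate 2 (adjusted p = 0.0914) and with duplicates summed per culture (0.1004).

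The membrane mucins did not move as a block. Muc16, a giant surface mucin, had 3.69 and 3.21 CPM in clone 2.5 and 2.86 and 2.63 CPM in clone 2.4, against 7.56 and 8.57 CPM in FoP wild type. These groups did not overlap, yet the test missed the threshold (log2 fold change -1.38 ± 0.48, adjusted p = 0.0551, edgeR). It was passed in 9 of the 26 alternatives, among them the fit of the FoP libraries alone (adjusted p = 0.000424) and the fits without clone 2.9 duplicate 2 (0.0419) or clone 2.10 duplicate 1 (0.00311). In the CVP line Muc16 fell to 0.452 and 1.38 CPM in clone 2.10 and 2.06 and 2.60 CPM in clone 2.9, against 9.81 and 19.6 CPM in wild type (-3.18 ± 0.48, adjusted p = 0.000430). Muc16 lies on chromosome 9 (18495455 to 18674530, minus strand), alone among mucin genes, and its 26.35 kb of exons are the longest of the 10.

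Muc1, the widespread epithelial surface mucin, was the only one of the 10 not called lower in CVP. In FoP it was among several that were not called. It had 2.13 and 1.89 CPM in clone 2.5 and 1.82 and 2.32 CPM in clone 2.4, against 1.02 and 1.94 CPM in FoP wild type (log2 fold change 0.47 ± 0.36, adjusted p = 0.366, edgeR). It had 2.00 and 2.58 CPM in clone 2.10 and 0.993 and 1.55 CPM in clone 2.9, against 1.93 and 1.39 CPM in CVP wild type (0.10 ± 0.35, adjusted p = 0.837). Groups overlapped in both lines, and the errors still allow a change of moderate size either way.

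Muc4 and Muc20 stand next to each other on chromosome 16, Muc4 at 32735886 to 32782391 on the plus strand and Muc20 at 32777419 to 32797435 on the minus strand, so their 3' parts overlap on opposite strands. No source used here states whether counting used strand, so reads from the shared stretch of both genes cannot be told apart. Muc4, a membrane mucin that binds the receptor ErbB2, had 14 and 6 counts in clone 2.5 and 12 and 8 in clone 2.4, against 26 and 14 counts in FoP wild type (log2 fold change -0.93 ± 0.65, adjusted p = 0.321, edgeR). In the CVP line it had 0 and 0 counts in clone 2.10 and 2 and 2 in clone 2.9, against 15 and 37 counts in wild type (-4.40 ± 0.79, adjusted p = 0.000574). Clone 2.10 was at least 8.01-fold below wild type against the floor of 3 counts per library. Muc4 thus was close to the detection limit in the CVP clones and still countable in the FoP clones.

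Muc20, a smaller membrane mucin, was lower in CVP knock-out and was not called in FoP. Its CVP knock-out libraries held only 6 and 6 counts in clone 2.10 and 2 and 2 in clone 2.9. Muc20 passed the filter on low counts through other groups, so its lower CVP value adds no support. It had 1.46 and 0.660 CPM in clone 2.5 and 0.365 and 0.929 CPM in clone 2.4, against 0.668 and 0.906 CPM in FoP wild type (log2 fold change 0.12 ± 0.51, adjusted p = 0.892, edgeR). The FoP clones lay on both sides of their wild type. In the CVP line it had 0.0903 and 0.0928 CPM in clone 2.10 and 0.0310 and 0.0317 CPM in clone 2.9, against 0.967 and 0.555 CPM in wild type (-3.58 ± 0.57, adjusted p = 0.000250).

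The trefoil peptide Tff2, a small secreted protein of mucous neck and gland cells, fell in both lines. It is a minus-strand gene of chromosome 17 (31141049 to 31144282) between Tff3 and Tff1. Tff2 had 0 and 2 counts in clone 2.5 and 15 and 10 in clone 2.4, against 44 and 55 counts in FoP wild type (log2 fold change -2.82 ± 0.73, adjusted p = 0.0145, edgeR). The knock-out to wild type ratio was 0.0219 in clone 2.5 (95% counting interval 0.00262 to 0.0812) and 0.253 in clone 2.4 (0.156 to 0.396). In the CVP line Tff2 had 0 and 4 counts in clone 2.10 and 2 and 2 in clone 2.9, against 394 and 837 counts in wild type (-8.05 ± 0.81, adjusted p = 2.06e-05). The residual transcript was thus largest in clone 2.4. The FoP call was lost with duplicates summed per culture (adjusted p = 0.216), by limma voom, culture as block (0.109), with no filter (0.0532) and without FoP wild type duplicate 2 (0.0969).

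Of the regulators, Spdef and Agr2 fell in both lines and Creb3l1 changed little. Agr2 had 10.8 and 7.03 CPM in clone 2.5 and 9.50 and 9.20 CPM in clone 2.4, against 23.4 and 32.0 CPM in FoP wild type (log2 fold change -1.60 ± 0.23, adjusted p = 0.000820, edgeR). It had 8.28 and 12.6 CPM in clone 2.10 and 8.37 and 11.6 CPM in clone 2.9, against 70.9 and 105 CPM in CVP wild type (-3.11 ± 0.23, adjusted p = 6.35e-06). The wild type levels differed widely, while the 4 clones of both lines lay together between 7.03 and 12.6 CPM. Spdef had 0.508 and 0.660 CPM in clone 2.5 and 0.699 and 0.666 CPM in clone 2.4, against 1.63 and 1.78 CPM in FoP wild type (-1.42 ± 0.29, adjusted p = 0.00302). It had 3.10 and 2.15 CPM in clone 2.10 and 1.66 and 1.24 CPM in clone 2.9, against 9.26 and 10.3 CPM in CVP wild type (-2.26 ± 0.27, adjusted p = 3.04e-05). Spdef was thus reduced in every clone but remained countable, with 32 to 206 counts per knock-out library. With duplicates summed per culture its FoP call was lost (adjusted p = 0.125).

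Creb3l1 had 10.4 and 8.90 CPM in clone 2.5 and 9.28 and 7.96 CPM in clone 2.4, against 10.3 and 9.71 CPM in FoP wild type (log2 fold change -0.14 ± 0.18, adjusted p = 0.617, edgeR). It had 7.41 and 8.16 CPM in clone 2.10 and 4.92 and 6.32 CPM in clone 2.9, against 9.02 and 11.1 CPM in CVP wild type (-0.59 ± 0.17, adjusted p = 0.0143). The CVP fall was the smallest of the 9 called, and the call was lost without clone 2.9 (adjusted p = 0.0648), without CVP wild type duplicate 2 (0.162) and with duplicates summed per culture (0.135). The other 8 members that fell in CVP kept their call in every alternative in which they were tested.

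**Figure D2:**
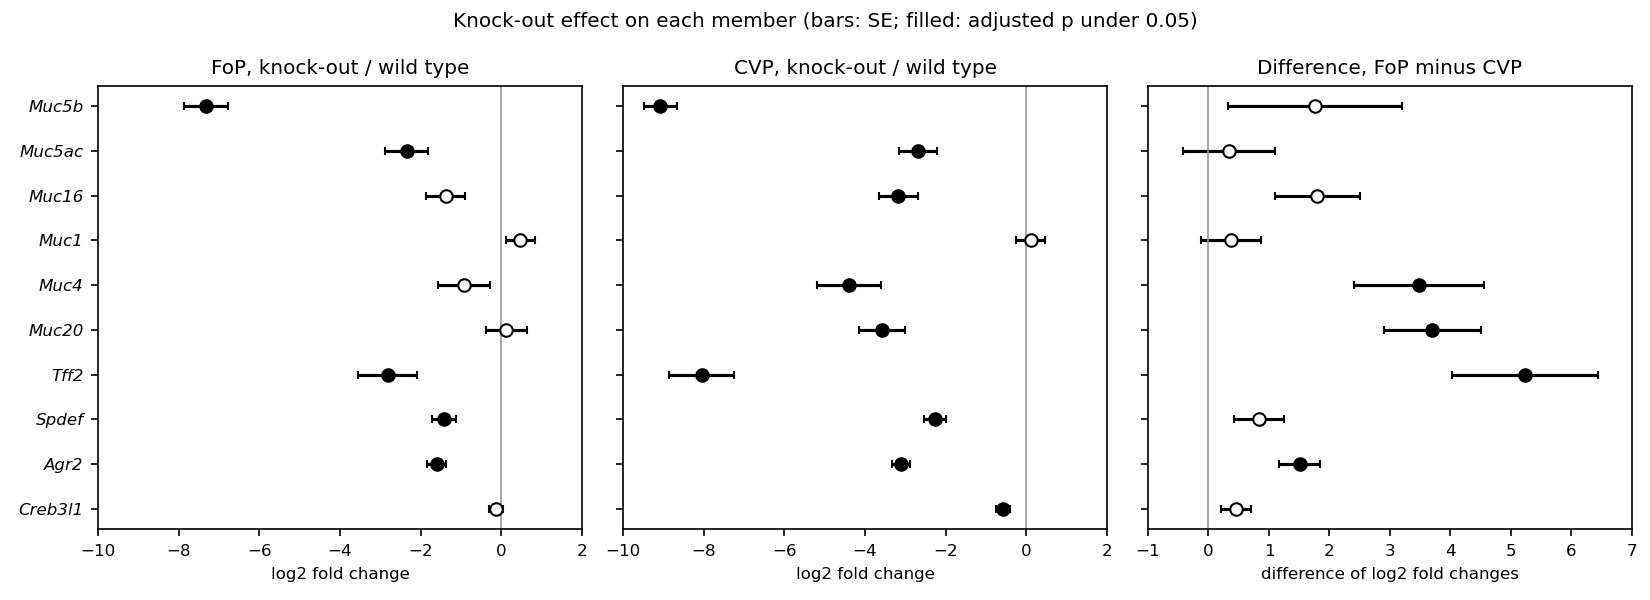
Log2 fold change of knock-out over wild type in FoP (left) and CVP (middle), and the FoP minus CVP difference of the 2 changes (right), as estimate and SE; filled points have an adjusted p under 0.05. In CVP 9 points are filled and lie left of 0, in FoP 5, and all 10 differences lie right of 0.

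The 250 bases before the start site were searched for short words of transcription factors in the 6 of the 10 genes with a promoter in RefSeq on GRCm38.p6 (Muc16, Muc1, Muc4, Muc20, Spdef and Agr2). The 3 windows that held a match are shown, read 5′ to 3′ on the strand of the gene. Agr2 lies at chr12:35992675-35992924 (plus), Spdef at chr17:27728952-27729201 (minus) and Muc20 at chr16:32797436-32797685 (minus). Capitals mark matches, on either strand, to the forkhead words TAAACA or CAAACA, the ETS word CCGGAT or the CREB3-type word ACGTG.
Agr2: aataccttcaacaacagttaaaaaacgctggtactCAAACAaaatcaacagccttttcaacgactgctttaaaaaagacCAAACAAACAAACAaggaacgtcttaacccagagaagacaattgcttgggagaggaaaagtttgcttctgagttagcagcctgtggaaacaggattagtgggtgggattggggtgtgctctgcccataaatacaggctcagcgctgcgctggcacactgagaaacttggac
Spdef: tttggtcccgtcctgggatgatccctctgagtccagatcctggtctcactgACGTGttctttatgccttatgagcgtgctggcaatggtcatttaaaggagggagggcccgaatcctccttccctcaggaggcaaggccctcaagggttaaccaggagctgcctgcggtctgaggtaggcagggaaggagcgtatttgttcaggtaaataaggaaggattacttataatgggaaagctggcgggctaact
Muc20: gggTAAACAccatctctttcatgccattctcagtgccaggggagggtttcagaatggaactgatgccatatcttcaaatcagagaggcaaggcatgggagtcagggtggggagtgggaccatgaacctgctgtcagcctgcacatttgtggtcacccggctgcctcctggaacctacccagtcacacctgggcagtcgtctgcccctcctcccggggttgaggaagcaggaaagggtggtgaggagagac
The Agr2 window holds CAAACA at 4 places, 3 of them overlapping in a run that starts 171 bases before the start site. Of 32851 such windows in the RefSeq table, 16% hold CAAACA, 12% TAAACA, 4.94% CCGGAT and 16.6% ACGTG. The Spdef window holds 1 ACGTG and the Muc20 window 1 TAAACA. The windows of Muc16, Muc1 and Muc4 held 0 matches to these words. A match is a run of letters and does not show that a factor binds there.

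The difference between the lines was tested directly. The FoP change was less negative or more positive than the CVP change for all 10 genes, and for 4 of them the difference passed (edgeR, contrast of FoP minus CVP change), beside 7.28% of all tested genes called in that direction, 8.49% in the other and 15.8% in either. The difference of log2 fold changes was 5.23 ± 1.21 for Tff2 (adjusted p = 0.0155), 3.70 ± 0.80 for Muc20 (0.00908), 3.48 ± 1.07 for Muc4 (0.0439) and 1.51 ± 0.34 for Agr2 (0.0168). Tff2, Muc20 and Muc4 had 0 CVP knock-out libraries at 10 counts or more. They passed the filter on low counts through other groups, which favours a positive difference, so they add no support to the count of 4. Agr2 averaged 9.13 CPM in FoP knock-out and 10.2 CPM in CVP knock-out, against 27.7 and 88.0 CPM in the wild types. Its difference thus goes with unequal wild type levels and similar knock-out levels. The difference for Muc5b was 1.76 ± 1.43 (adjusted p = 0.453), with hardly any counts left in either set of clones. For Muc16 it was 1.80 ± 0.71 (0.118) and for Spdef 0.84 ± 0.42 (0.198). The Muc4 call was lost in 15 of 23 alternatives, the Tff2 call in 8 of 24, the Agr2 call in 5 of 25 and the Muc20 call in 4 of 24. Of the 4 calls, 0 remained by limma voom (culture as block), with duplicates summed per culture or without FoP wild type duplicate 1. There were 3 with the replicate number as a block, and Muc20 alone was called without clone 2.4 or without CVP wild type duplicate 2. Tff2 and Agr2 were called without CVP wild type duplicate 1, and Muc20 and Agr2 without FoP wild type duplicate 2.

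The wild types of the lines also differed in mucous genes. FoP wild type was lower than CVP wild type for 5 of the 10 and higher for 0, beside 2.91% of all tested genes lower, 3.77% higher and 6.68% either (edgeR; 5 at an unadjusted p under 0.05, 5 by DESeq2). This comparison uses the same wild type libraries as the comparisons above. Muc5b averaged 2.21 ± 0.514 CPM in FoP wild type and 36.4 ± 15.9 CPM in CVP wild type (SD, n = 2 each; log2 fold change -4.04 ± 0.39 (SE), adjusted p = 0.000775, edgeR). Tff2 averaged 0.765 ± 0.177 CPM in FoP wild type and 8.69 ± 4.14 CPM in CVP wild type (-3.51 ± 0.79, adjusted p = 0.0266). Spdef averaged 1.70 ± 0.108 CPM in FoP and 9.78 ± 0.748 CPM in CVP (-2.52 ± 0.34, adjusted p = 0.00256). Muc5ac (-2.12 ± 0.58, adjusted p = 0.0453) and Agr2 (-1.67 ± 0.28, adjusted p = 0.00984) were lower too. Creb3l1 (10.03 CPM in FoP wild type and 10.06 CPM in CVP wild type), Muc1, Muc4, Muc16 and Muc20 did not pass, with adjusted p from 0.413 to 0.993. The count of 5 was 2 or 3 without any 1 of the 4 wild type libraries and 0 with duplicates summed per culture.

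Levels of different genes can be set side by side only per length, here as CPM per kb of exon. In FoP wild type the order ran from Agr2 (21.4 ± 4.72, SD, n = 2) through Creb3l1 (3.85 ± 0.173), Tff2 (1.31 ± 0.303), Spdef (0.739 ± 0.0467) and Muc1 (0.630 ± 0.279) to Muc4 (0.0257 ± 0.00910). In CVP wild type it ran from Agr2 (68.2 ± 18.7) through Tff2 (14.9 ± 7.08), Spdef (4.24 ± 0.325), Creb3l1 (3.86 ± 0.562) and Muc5b (2.43 ± 1.06) to Muc4 (0.0312 ± 0.0177). Spdef and Creb3l1 in CVP wild type, and Spdef and Muc1 in FoP wild type, lay within their spread of each other. In both sets of knock-out libraries Agr2 and Creb3l1 were the highest 2, at 7.07 ± 1.21 and 3.51 ± 0.382 in FoP and 7.92 ± 1.73 and 2.58 ± 0.542 in CVP (SD, n = 4).

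The mix of mucins differed between knock-out and wild type. Muc5b made up 0 to 0.209% of the summed 6 mucins per kb in FoP knock-out, against 11.3% and 10.3% in FoP wild type. It made up 0.317% to 0.660% in CVP knock-out, against 49.4% and 62.9% in CVP wild type. Muc1 led the sum in all 8 knock-out libraries and in FoP wild type, at 62.9% to 76.2% in FoP knock-out, against 39.8% and 49.7% in FoP wild type, and at 78.8% to 89.8% in CVP knock-out, against 24.2% and 11.7% in CVP wild type. Its own CPM overlapped between the groups, so the shares moved with the other mucins. The 6 mucins summed to 1.02 to 1.44 CPM per kb in FoP knock-out, against 1.09 and 1.67 in FoP wild type, and to 0.537 to 1.25 in CVP knock-out, against 3.40 and 5.06 in CVP wild type. The sum overlapped between the FoP groups and did not overlap between the CVP groups.

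**Figure D3:**
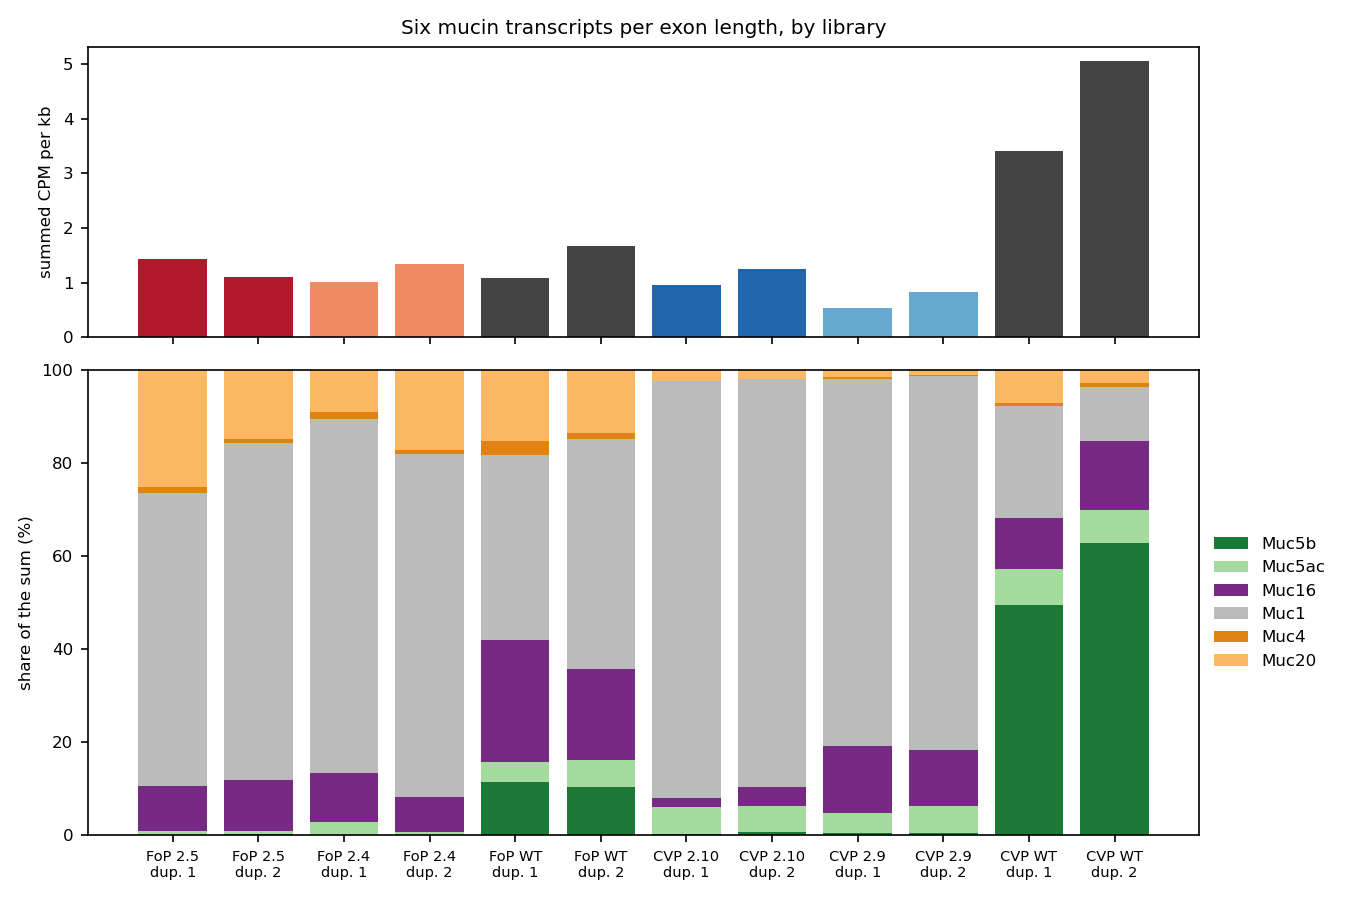
Summed CPM per kb of exon of 6 mucins (top) and the share of each in that sum (bottom), 1 bar per library, knock-out clones left of the wild type of their line. The 2 CVP wild type bars reach 3.40 and 5.06 and are the only ones led by Muc5b; Muc1 leads the other 10.

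The clones of a line were compared from duplicates alone, in a fit with 1 mean per culture. Clone 2.5 against clone 2.4 gave 0 calls among the 10 (edgeR; 1 at an unadjusted p under 0.05; 1 by DESeq2, 0 by limma voom), beside 7.26% of all tested genes (3.53% higher, 3.72% lower). Tff2 was nearest, at 0 and 2 counts in clone 2.5 against 15 and 10 in clone 2.4 (log2 fold change -3.38 ± 1.04, adjusted p = 0.0702), and DESeq2 called it (adjusted p = 0.0224), as did the fits without either clone 2.10 duplicate (0.0366 and 0.0369) or CVP wild type duplicate 1 (0.0466). Clone 2.10 against clone 2.9 gave 1 call (5 at an unadjusted p under 0.05; 1 by DESeq2, 0 by limma voom), beside 5.42% of all tested genes (2.89% higher, 2.54% lower). That gene was Spdef, at 3.10 and 2.15 CPM in clone 2.10 against 1.66 and 1.24 CPM in clone 2.9 (0.86 ± 0.23, adjusted p = 0.0461), and the call was lost in 14 of 19 alternatives, which include leaving out any 1 of 11 libraries and the replicate block (0.0568). Muc16 went the other way, at 0.452 and 1.38 CPM in clone 2.10 against 2.06 and 2.60 CPM in clone 2.9 (-1.35 ± 0.48, adjusted p = 0.190). Both clones of a line therefore had the same direction against wild type for the members that fell, with residual levels that cannot be ordered firmly from duplicates.

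The duplicates of CVP wild type themselves differed in mucous genes. Duplicate 2 over duplicate 1 was 1.89 for Muc5b, 1.99 for Muc16, 2.34 for Muc4, 2.01 for Tff2 and 1.48 for Agr2, against 0.574 for Muc20 and 0.718 for Muc1. On the log2 (CPM + 0.1) scale, 2.62% to 3.44% of all tested genes differed more between these duplicates than Muc5b, Muc16, Muc4 or Tff2 did, and the median absolute difference over all genes was 0.12. For FoP wild type the same ratio was 1.39 for Muc5b and 1.39 for Tff2. This spread is part of the error of the CVP comparisons. Both CVP wild type duplicates stayed above all 4 knock-out libraries for the 9 genes that fell.

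Other genes of mucus were followed in 5 lists. Their counts stand beside 13.5% of all tested genes that rose and 15.3% that fell in FoP. In CVP these shares were 23.5% and 22.9%. Of 13 other mucins and trefoil peptides, 4 had enough counts to test; in FoP 1 rose and 2 fell, and in CVP 0 rose and 1 fell, with medians of -1.02 and -0.91. Muc13, a membrane mucin, had 10 counts in all FoP knock-out libraries against 45 in the 2 FoP wild type libraries (log2 fold change -3.06 ± 0.94, adjusted p = 0.0269, edgeR). It had 9 counts in all CVP knock-out libraries against 174 in the CVP wild type pair (-5.09 ± 0.91, adjusted p = 0.000555). No knock-out library of Muc13 reached 10 counts in either line. Muc13 passed the filter through other groups, so its fall adds no support. Muc2, the gel-forming mucin of intestinal goblet cells and a neighbour of Muc5ac, had 0.651 and 0.729 CPM in clone 2.5 and 0.0608 and 0.372 CPM in clone 2.4, against 2.02 and 1.83 CPM in FoP wild type (-2.09 ± 0.58, adjusted p = 0.0182). Muc15, a membrane mucin, rose in FoP (0.98 ± 0.31, adjusted p = 0.0317). Tff3 had 0 counts in all 12 libraries. Muc19 had 2 counts in CVP wild type duplicate 1 and 0 in every other library.

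Of the 5 lists, genes whose products travel with mucus had the highest share of tested genes that fell. Of 9 listed, 6 were tested; 4 fell and 0 rose in FoP, and 5 fell and 0 rose in CVP, with medians of -2.39 and -2.66. Bpifb1, a secreted protein of mucous glands, averaged 2.93 ± 0.292 CPM in FoP knock-out and 25.6 ± 2.79 CPM in FoP wild type (SD, n = 4 and n = 2; log2 fold change -3.13 ± 0.91 (SE), adjusted p = 0.0322, edgeR). In the CVP line it had 47.0 and 58.3 CPM in clone 2.10 and 5.10 and 6.76 CPM in clone 2.9, against 148 and 201 CPM in wild type (-2.57 ± 0.82, adjusted p = 0.0310). The secretoglobin Scgb3a1 fell in FoP, though its groups overlapped (-1.65 ± 0.53, adjusted p = 0.0319), and in CVP (-2.75 ± 0.45, adjusted p = 0.000294). Itln1, a sugar-binding lectin, had 0 counts in the 4 FoP knock-out libraries against 56 in FoP wild type, and 12 in the 4 CVP knock-out libraries against 638 in CVP wild type. Its reads can be shared with close copies, so the value is uncertain. Pigr, which carries antibodies across epithelium, split by clone in FoP, with 30.1 and 19.9 CPM in clone 2.5 and 4.76 and 3.95 CPM in clone 2.4, against 18.0 and 24.3 CPM in wild type. It fell in CVP (-4.51 ± 0.73, adjusted p = 0.00109).

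Enzymes of mucin sugar chains moved in both directions. Of 34 listed, 29 were tested. In FoP 10 rose and 9 fell, and in CVP 8 rose and 14 fell, with medians of -0.27 and -0.36. Over all tested genes 13.5% rose and 15.3% fell in FoP, and 23.5% rose and 22.9% fell in CVP. The genes with the largest calls were lower. Chst4, a sulfotransferase, had 1 count in all FoP knock-out libraries against 87 in FoP wild type, and 22 in all CVP knock-out libraries against 314 in CVP wild type. B3galt5, a galactosyltransferase, averaged 0.371 ± 0.218 CPM in FoP knock-out and 5.82 ± 1.87 CPM in FoP wild type (SD, n = 4 and n = 2; log2 fold change -3.98 ± 1.17 (SE), adjusted p = 0.0320, edgeR). It had 0.0452 and 0.0773 CPM in clone 2.10 and 2.59 and 1.87 CPM in clone 2.9, against 10.1 and 8.40 CPM in CVP wild type (-3.01 ± 1.09, adjusted p = 0.0488). B3gnt7 fell in FoP (-1.65 ± 0.31, adjusted p = 0.00160) and CVP (-2.86 ± 0.30, adjusted p = 1.28e-05), B3gnt3 was at -1.06 ± 0.23 in FoP (adjusted p = 0.00794) and Galnt5 at -2.40 ± 0.91 in CVP (adjusted p = 0.0459). Chst4 in FoP and Galnt5 in CVP had no knock-out library at 10 counts. In CVP knock-out Chst4 reached 10 counts only in clone 2.9 duplicate 1, at 14. In these cases the gene passed the filter through other groups, so its fall adds no support.

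Other secretory regulators were called in both directions. Of 18 listed, 14 were tested; 1 rose and 1 fell in FoP, and 3 rose and 5 fell in CVP, with medians of 0.07 and -0.19. The share that rose was below that of all tested genes in both lines (13.5% in FoP, 23.5% in CVP), as was the share that fell in FoP (15.3%). Elf3, an ETS factor of epithelial differentiation, averaged 100.8 ± 16.3 CPM in FoP knock-out and 174 ± 3.98 CPM in FoP wild type (SD, n = 4 and n = 2; log2 fold change -0.79 ± 0.17 (SE), adjusted p = 0.00706, edgeR), and fell by 1.52 on the log2 scale in CVP (adjusted p = 6.51e-05). Sox9 rose in FoP (0.40 ± 0.10, adjusted p = 0.00936) and CVP (0.53 ± 0.10, adjusted p = 0.000877). In CVP Foxa2 rose (0.63 ± 0.16, adjusted p = 0.00648) and Foxa1 fell (-0.54 ± 0.11, adjusted p = 0.00241), both forkhead factors of endodermal and secretory epithelia. Of 12 granule release genes 11 were tested. In FoP 1 rose and 2 fell, beside 13.5% and 15.3% of all tested genes. In CVP 2 rose and 4 fell, beside 23.5% and 22.9%. So few genes do not set this list apart from all tested genes. Rab3d, a small GTPase of secretory granules, fell in CVP (-0.88 ± 0.11, adjusted p = 8.21e-05), and Sytl4, a granule docking protein, fell in FoP (-1.25 ± 0.25, adjusted p = 0.00237).

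**Figure D4:**
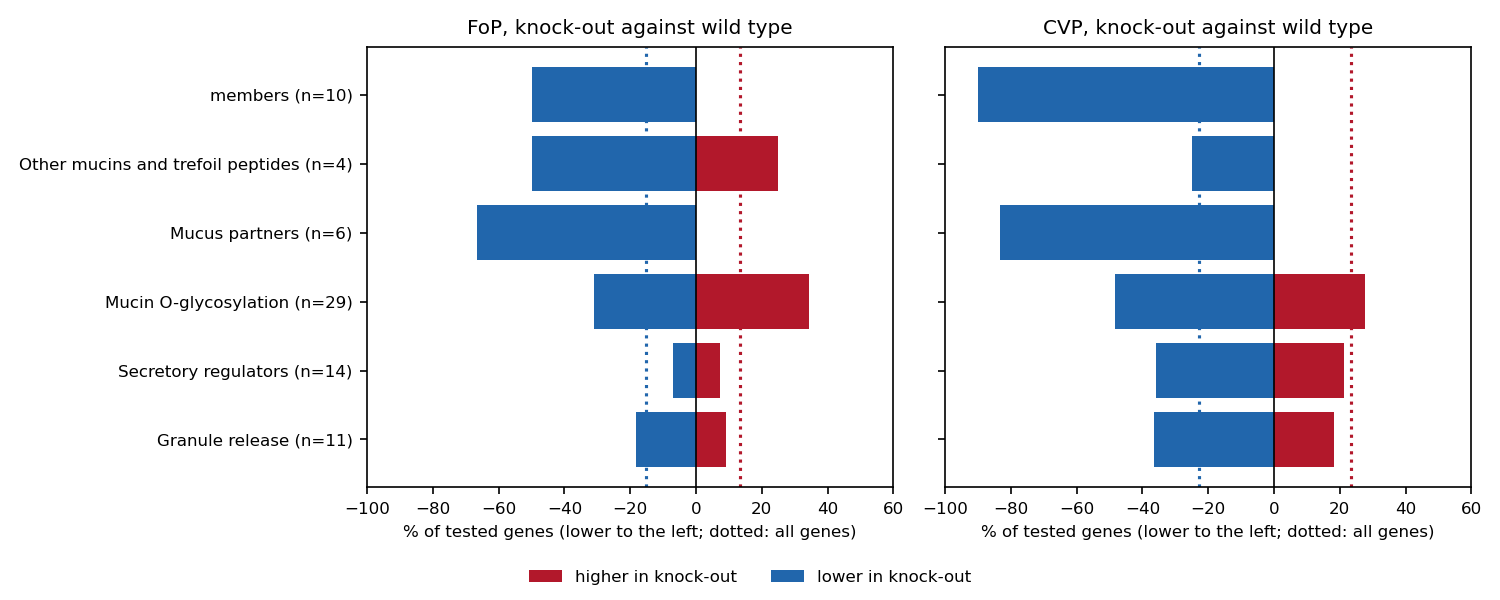
Share of the tested genes of each list that was higher (right of 0) or lower (left of 0) in knock-out at an adjusted p under 0.05, for FoP (left panel) and CVP (right panel); dotted lines mark the shares over all tested genes (13.5% and 15.3% in FoP, 23.5% and 22.9% in CVP). The members and the mucus partners have bars to the left only in both lines. These bars include genes that passed the filter only through other groups and add no support.

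Markers of other cell types moved with the mucous genes in part. The counts of markers called stand beside 13.5% of all tested genes that rose and 15.3% that fell in FoP. In CVP these shares were 23.5% and 22.9%. Of 12 serous and duct markers, the summed level was 589.5 to 679 CPM in FoP knock-out against 915 to 962 CPM in FoP wild type, and 333 to 971 CPM in CVP knock-out against 1299 to 1303 CPM in CVP wild type, with Dcpp2 and Prol1 at 0 in all groups. The sums were mostly Krt7, a duct keratin, at 498 ± 39.1 CPM in FoP knock-out and 829 ± 27.0 CPM in FoP wild type (SD, n = 4 and n = 2), which did not pass the test (adjusted p = 0.206, edgeR). Of the 6 tested, 1 fell in FoP (Lpo), with a list median of 0.17, and 3 fell and 1 rose in CVP, with a median of -0.86. The 4 proliferation markers summed to 74.1 to 99.2 CPM in FoP knock-out against 318 to 319 CPM in FoP wild type (4 of 4 fell), and to 78.3 to 144 CPM in CVP knock-out against 171 to 172 CPM in CVP wild type (3 of 4 fell). Of 8 immune markers, the sum was 4.32 to 5.49 CPM in FoP knock-out against 17.5 to 17.6 CPM in FoP wild type, and 1.49 to 2.49 CPM in CVP knock-out against 30.8 to 43.3 CPM in CVP wild type. The pan-leukocyte marker Ptprc had 0 counts in all 12 libraries, and 2 of the 3 tested immune markers, Lyz2 and Cd68, fell in both lines. Lyz2 had 0 counts in all knock-out libraries and passed the filter through wild type, so its fall adds no support. Of 8 taste markers, the sum was 20.4 to 21.7 CPM in FoP knock-out against 21.2 to 23.2 CPM in FoP wild type, and 15.5 to 20.1 CPM in CVP knock-out against 26.6 to 27.3 CPM in CVP wild type, with Car4 at 0 in all groups. The sums were mostly Entpd2, at 19.0 CPM in FoP knock-out, 18.6 CPM in FoP wild type, 16.3 CPM in CVP knock-out and 21.6 CPM in CVP wild type. Of the 3 tested taste markers, 1 fell in FoP and 3 in CVP. Otop1, the proton channel of sour taste cells, had 6 counts in all FoP knock-out libraries against 195 in FoP wild type, and 13 in all CVP knock-out libraries against 378 in CVP wild type. No knock-out library of Otop1 reached 10 counts, so it passed the filter through wild type and its fall adds no support. Trpm5, not among the 3 tested, went the other way, with 23 counts in all FoP knock-out libraries against 2 in FoP wild type. In CVP knock-out Trpm5 had 31 counts against 4 in wild type. Of the 8 lingual epithelium markers, 1 rose and 0 fell in FoP (Trp63), and 2 rose and 5 fell in CVP. In CVP the basal keratin Krt14 rose (log2 fold change 1.37 ± 0.17, adjusted p = 4.42e-05, edgeR), and Krt13 (-3.20 ± 0.78, adjusted p = 0.00959) and Krt4 (-2.92 ± 0.61, adjusted p = 0.00182), keratins of differentiated layers, fell. The 7 fibroblast markers summed to at most 10.01 CPM and the 4 ciliated cell markers to at most 12.3 CPM in any library. Of 6 fibroblast markers tested, 1 rose and 1 fell in FoP, and 2 rose and 1 fell in CVP. Of 3 ciliated cell markers tested, 0 were called in FoP, and 0 rose and 1 fell in CVP. The part of these differences in the fall of the mucous genes was not tested.

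The genes most like Muc5b across the 12 libraries, by Pearson correlation of log2 CPM, were Cyp4a12b (0.98), Lyz2 (0.98), Tmem30b (0.97), Cystm1 (0.97) and Abca13 (0.97). Those most like Muc4 were Armcx1 (0.97), Prcp (0.97), Sema7a (0.96), Lypd6b (0.96) and Slc7a11 (0.95). The 12 libraries share 6 cultures and 2 lines, so these values describe the pattern and carry no test. The Muc5b-like genes were low in all 8 knock-out libraries, middling in FoP wild type and highest in CVP wild type. Tmem30b, for example, had 52.7 to 56.6 CPM in FoP knock-out against 86.8 and 89.3 CPM in FoP wild type, and 48.9 to 54.4 CPM in CVP knock-out against 130 and 133 CPM in CVP wild type. Reads of Cyp4a12b and Lyz2 can be shared with close copies, so their values are uncertain. Sema7a, a membrane-anchored semaphorin, had 1.66 to 3.15 CPM in FoP knock-out against 4.88 and 5.90 CPM in FoP wild type, and 0.151 to 0.620 CPM in CVP knock-out against 7.31 and 6.80 CPM in CVP wild type. As for Muc4, the CVP clones were the lowest of the groups.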

How the data were processed

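RNA of 12 organoid samples was prepared with a Qiagen kit and made into stranded poly(A) libraries with TruSeq, per the labels' protocols. The values used are the raw counts per gene deposited by the authors, made with STAR and featureCounts, with the build hg38 named, per the submitters' processing notes. The table carries mouse symbols, and 96.1% of them match exactly 1 gene of GENCODE M21 (GRCm38), which gave coordinates and exon lengths. Aligner settings and strand are not given in the sources used here.

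Genes were filtered with filterByExpr over 4 arms (17076 of 55367 kept), scaled by TMM and fitted with edgeR 4.0.16 (robust quasi-likelihood, R 4.3.3). P-values were adjusted by Benjamini-Hochberg across the 17076 genes, with 0.05 as threshold. Muc5b, Muc4, Muc20 and Tff2 in CVP, and Muc5b in FoP, passed the filter through other arms, with 0 knock-out libraries at 10 counts or more. Muc5ac in FoP did too, with 1 such library. For all of these the filter itself favoured a lower value in knock-out. SE is the fold change over the root of F, an approximation. Clones were compared in a fit of 6 cultures. Duplicates differed beyond sampling noise (chi-square per gene 8.18 to 40.8). Alternatives were DESeq2 1.42.0 (size factors and Wald test), limma 3.58.1 voom, other filters, halved counts, the replicate block, 6 cultures, summed duplicates, 1 line alone, and each clone or library left out. The 10 genes, the lists and the naming rule (all 10 members, at most the 4 called genes per list and line with the largest fold change, and the 5 genes most like Muc5b and Muc4) were fixed with earlier results of these data known.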

Additional observations from a re-analysis of the deposited data

Results flagged for a closer look

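The knock-out change differed between the lines, by the test of the difference itself, for 4 of the 10 genes. The FoP minus CVP difference of the log2 fold change was 5.23 for Tff2, 3.70 for Muc20, 3.48 for Muc4 and 1.51 for Agr2. Knock-out means of Agr2 were similar in the lines (9.13 CPM in FoP, 10.2 CPM in CVP), while its wild type means differed (27.7 and 88.0 CPM). The Muc4 call was lost in 15 of 23 alternatives, and 0 of the 4 calls remained by limma voom (culture as block) or with duplicates summed per culture. For Tff2, Muc4 and Muc20 the CVP clones had at most 6 counts per library, so the size of their difference depends on the prior count of the fit. These 3 passed the filter through other groups and add no support to the count of 4.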

How the results depend on the processing

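In FoP 5 of the 10 genes fell and in CVP 9; without 1 library in turn the counts were 3 to 6 and 8 to 9. Over all tested genes these runs gave 2668 to 5079 calls in FoP (as reported 4921) and 5238 to 7975 in CVP (as reported 7929). For the difference between lines they gave 0 to 5 members (as reported 4) and 1103 to 2903 genes (as reported 2692), and for wild type FoP against wild type CVP 2 to 5 members (as reported 5) and 101 to 1235 genes (as reported 1140). For clone 2.10 against 2.9 they gave 0 to 2 members (as reported 1) and 549 to 1026 genes (as reported 926), and for clone 2.5 against 2.4 0 to 1 members (as reported 0) and 509 to 1627 genes (as reported 1239). With duplicates summed per culture, which leaves fewer residual degrees of freedom, 2 members and 372 genes were called in FoP, 8 and 3420 in CVP, and 0 members and 0 genes for the difference and for the wild types. The stricter filter leaves fewer members to test and called 5 in CVP, 1 for the difference, 3 for the wild types and 0 for clone 2.10 against 2.9. Limma voom called 3 members in FoP, 0 members and 1422 genes for the difference, 522 genes for the wild types and 0 members for clone 2.10 against 2.9. The fit of 6 cultures called 4424 genes for the difference and 2788 for the wild types, and the DESeq2 Wald test 2030 for the wild types and 1 member for clone 2.5 against 2.4. With no filter, clone 2.10 against 2.9 gave 2 members and 1494 genes and clone 2.5 against 2.4 gave 1 member and 1913 genes. Without clone 2.4 the difference was called for 1 member. The cause of these shifts was not tested, beyond what each setting itself removes.

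The duplicate numbers share no stated origin, and 1 of 15 correlations of deviations between cultures exceeded 0.1 (-0.06 to 0.11). With the replicate block, the call of Spdef in clone 2.10 against 2.9 was lost (0 members) and that of Tff2 in clone 2.5 against 2.4 was gained (1 member); the block also left 3 members for the difference and 4 for the wild types.

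Signs turned only for estimates that did not pass. The log2 fold change of Muc1 in CVP was -0.38 without clone 2.10 and -0.13 to 0.36 without 1 library. That of Muc20 in FoP was -0.028 in limma voom, -0.28 without clone 2.5 and -0.27 to 0.38 without 1 library. The difference between lines was -0.0079 without clone 2.9, -0.24 without clone 2.4 and -0.28 to 0.93 without 1 library for Muc5ac, -1.11 without clone 2.5 for Muc5b, and -0.030 to 0.90 without 1 library for Muc1. Between wild types Creb3l1 was at 0.00086 in limma voom, and without 1 library at -0.15 to 0.15, with Muc1 at -0.71 to 0.23, Muc4 at -0.76 to 0.46 and Muc20 at -0.30 to 0.50. Without 1 library, clone 2.10 against 2.9 gave -0.27 to 0.34 for Agr2, -4.11 to 0.94 for Tff2 and -0.056 to 1.38 for Muc5b. Clone 2.5 against 2.4 gave -0.41 to 0.21 for Agr2, -0.21 to 0.14 for Muc1, -0.55 to 0.53 for Muc4 and -1.60 to 0.10 for Muc5ac.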

Other observations

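Over the whole table, counts of 2 (20289 values) were about as frequent as counts of 1 (20007), and counts of 4 (10030) more frequent than counts of 3 (6626). Among the members, all 12 nonzero counts of Muc20 were even, as were 10 of 12 for Muc5ac and 6 of 12 for Agr2.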
